A study of Rattus norvegicus with 47 samples.

Results

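The genes described are 10 complement genes, taken by gene name from 30045 gene lines in each of 4 count tables. Of them 5 act in or near the classical pathway (C1qa, C1qb, C1qc, C1s and C2), 3 in the alternative pathway or at the step the pathways share (C3, Cfb and Cfd), and 2 are receptors for the cleavage products (C3ar1 and C5ar1). The RNA came from lung tissue and from blood of male rats of the inbred strain Fischer 344, described as healthy. Rats of the silica groups inhaled a crystalline silica powder of small particle size (Min-U-Sil 5) on 5 days, 6 h each day, at a concentration of 15 mg/m3, and rats of the air groups had breathed filtered air in the same kind of whole-body exposure. They were killed 1 day or 6 months after it. There were 6 silica and 6 air libraries for lung at 1 day, 6 silica and 5 air for lung at 6 months, and 6 of each for blood at both times, 47 in all. The age of the rats is not given in the labels used here, and neither are the chambers or cages, so treatment and chamber cannot be told apart.

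Complement is a set of plasma and cell-surface proteins that mark particles, microbes and damaged cells for uptake and draw in leukocytes. In the classical pathway C1q, built from the A, B and C chains, binds a target and activates the protease C1s, which cleaves C4 and C2. In the alternative pathway factor D, the product of Cfd, cleaves factor B, the product of Cfb, when it is bound to C3, and all pathways meet at the cleavage of C3. The fragments C3a and C5a act through receptors encoded by C3ar1 and C5ar1, which macrophages and neutrophils carry. In rodents the liver makes most circulating complement, tissue macrophages make much of the C1q, adipocytes are rich in factor D, and lung epithelial cells and macrophages also make C3 and factor B.

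Values are estimated counts relative to the library's total, scaled by TMM factors within a table (CPM), and differences are given on the log2 scale, silica relative to air, as the fold change ± SE from edgeR's quasi-likelihood test, with p adjusted over all genes tested and a threshold of 0.05. The 4 tables, 1 for each tissue and time, were scaled separately, so levels set across them are only side by side. CPM is not corrected for gene length, so levels are not compared between genes. Total counts per library ran from 9643524 to 25875975. Lung and blood are mixtures of cells, and fewer cells of a type and less RNA per cell cannot be told apart in them.

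In lung at 1 day, 6 of the 10 complement genes were higher and 1 was lower in silica than in air rats. Over all 15331 genes tested in that comparison, 8.39% were higher and 5.72% lower. The median difference of the 10 was 0.33, against -0.0024 over all genes. In lung at 6 months, 8 of the 10 were higher and 0 lower, where 9.84% of 15309 genes were higher and 6.38% lower. The median difference of the 10 was then 0.46, against -0.0080 over all genes. The 10 genes were chosen with earlier results of these data known, so these shares and medians describe them and test nothing. By class, 4 of 5 classical genes were higher at 1 day and 5 of 5 at 6 months. Of the 3 alternative genes, 2 were higher at each time and the other, Cfd, was lower at 1 day. Of the 2 receptor genes, 0 passed the threshold at 1 day and 1 was higher at 6 months. At an unadjusted p under 0.05 (edgeR) another 2 of the 10 passed at 1 day. They were C3ar1 with a difference above 0 and C2 with one below 0. In all 9 of the 10 passed so, where 4282 of 15331 genes did. DESeq2 called C3ar1 at 1 day.

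**Figure D1:**
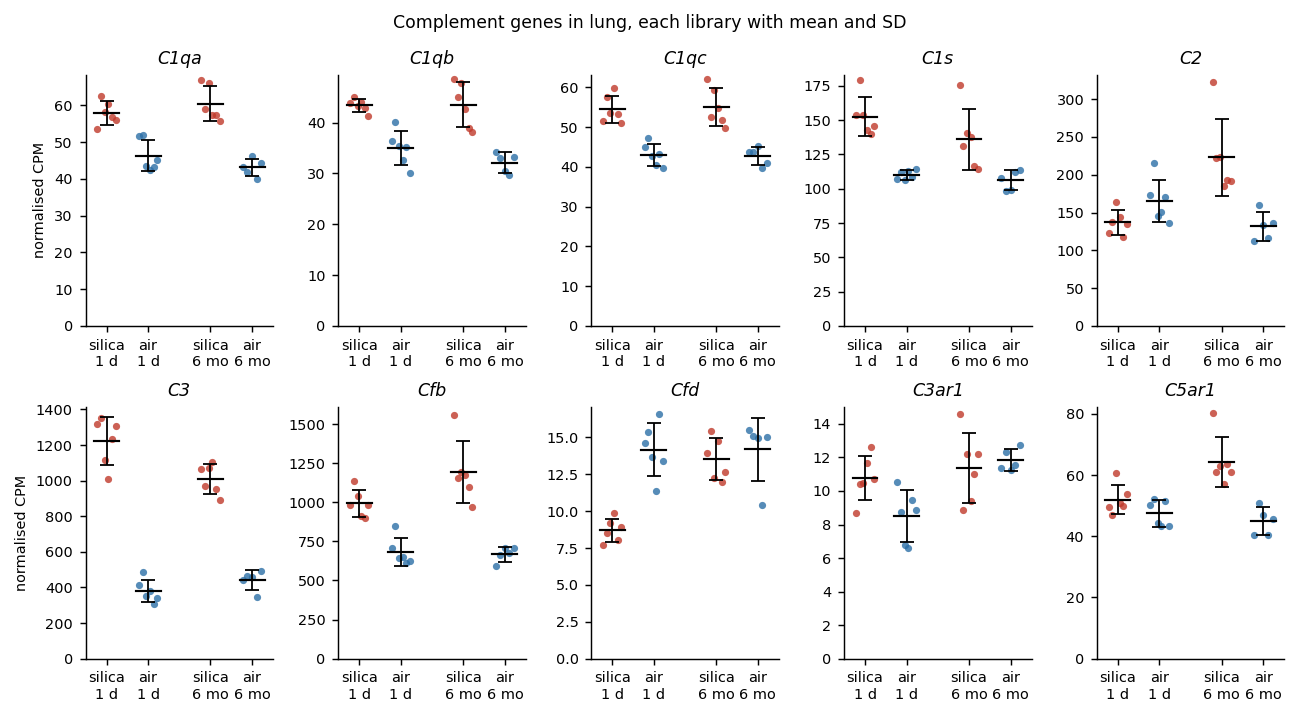
Normalised CPM (y axes from 0, a scale for each gene) of the 10 complement genes in each lung library, with silica in red and air in blue at 1 day and 6 months; the bar is the mean and the whiskers are 1 SD. Every silica lung lies above every air lung for C3 at both times, while Cfd lies below air at 1 day only and C2 above air at 6 months only.

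The 3 C1q chains were higher in silica lungs at both times, by a modest and similar amount. C1qa, the A chain, had a lowest, median and highest value of 53.7, 57.5 and 62.6 CPM in silica lungs at 1 day, against 42.5, 44.3 and 51.9 CPM in air lungs. At 6 months they were 55.9, 58.3 and 67.0 CPM in silica lungs, against 43.2, 41.9, 46.2, 39.9 and 44.3 CPM in the 5 air lungs. The groups did not overlap at either time, and the silica values at the 2 times covered much the same range. The differences of C1qa were 0.32 ± 0.058 at 1 day (adjusted p = 0.00177, edgeR) and 0.49 ± 0.058 at 6 months (adjusted p = 0.000243).

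C1qb, the B chain, averaged 43.4 ± 1.25 CPM in silica and 35.0 ± 3.37 CPM in air lungs at 1 day (SD, n = 6 each), a difference of 0.31 ± 0.057 (adjusted p = 0.00199, edgeR). C1qb at 6 months averaged 43.5 ± 4.39 CPM in silica (n = 6) and 32.1 ± 1.997 CPM in air lungs (SD, n = 5), a difference of 0.44 ± 0.070 (adjusted p = 0.00146, edgeR). C1qc, the C chain, averaged 54.5 ± 3.46 CPM in silica and 43.1 ± 2.81 CPM in air lungs at 1 day, a difference of 0.34 ± 0.052 (adjusted p = 0.000506, edgeR, n = 6 each). At 6 months C1qc averaged 55.1 ± 4.73 CPM in silica and 42.7 ± 2.27 CPM in air lungs, a difference of 0.37 ± 0.060 (adjusted p = 0.00160, edgeR, n = 6 and 5). Neither chain had overlapping groups at either time.

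No difference between the times passed the threshold for a C1q chain: the silica effect at 6 months minus that at 1 day was 0.17 ± 0.084 for C1qa, 0.13 ± 0.092 for C1qb and 0.03 ± 0.081 for C1qc, with adjusted p of 0.376, 0.574 and 0.901 (edgeR). The genes stand side by side on rat chromosome 5, in the order C1qb, C1qc and C1qa, in the RefSeq annotation of GRCr8.

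The 250 bases before the annotated start of C1qa and C1qb are shown, each read on the minus strand in the direction of the gene, from RefSeq (GRCr8). That of C1qa is chr5:154419934-154420183 and that of C1qb is chr5:154407828-154408077. The counts were made on Rnor_6.0, and none was placed by these coordinates. Capitals mark matches, on either strand, to GGG followed by any 5 bases and CC (kappaB-like), TTCNNNGAA (GAS-like, where N is any base) or GAGGAA (the core of the site of the myeloid factor PU.1), and touching or overlapping matches are 1 run.
C1qa: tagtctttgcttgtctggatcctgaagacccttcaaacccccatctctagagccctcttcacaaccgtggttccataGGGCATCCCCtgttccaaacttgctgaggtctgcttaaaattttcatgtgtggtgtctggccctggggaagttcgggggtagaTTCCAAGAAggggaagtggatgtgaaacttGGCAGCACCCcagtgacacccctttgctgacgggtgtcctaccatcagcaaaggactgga
C1qb: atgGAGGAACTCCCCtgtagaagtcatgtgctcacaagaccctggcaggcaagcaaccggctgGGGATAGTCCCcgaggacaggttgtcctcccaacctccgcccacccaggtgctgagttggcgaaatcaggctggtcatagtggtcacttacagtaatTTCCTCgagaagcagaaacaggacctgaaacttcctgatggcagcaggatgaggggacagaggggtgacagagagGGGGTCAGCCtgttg
C1qa held 2 kappaB-like matches and 1 GAS-like match, and C1qb held 4 kappaB-like and 2 PU.1-like matches. One of the kappaB-like matches of C1qb overlaps a PU.1-like one, and 2 others overlap each other. Of 33469 promoter windows of this length in the table, 42.3% held a kappaB-like match, 7.67% a GAS-like match and 23.3% a PU.1-like match. These are matches of letters and no evidence of a bound factor.

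Macrophage markers are the values to set beside C1q. At 1 day their summed level was 665 to 889 CPM in silica and 635 to 872 CPM in air lungs, with 2 of 8 tested markers higher (Cd68 and Msr1) and 3 lower (Csf1r, Pparg and Siglec1). At 6 months the sum was 880 to 1077 CPM in silica and 707 to 851 CPM in air lungs, with 5 of 8 higher and 1 lower. Of the 10 markers listed, Adgre1 was not found by that name and Marco stayed under 1 CPM in every lung library. Their part in the C1q values was not tested.

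C1s, the protease that C1q activates, was higher in silica lungs at both times. It had a lowest, median and highest value of 140.3, 149.7 and 179 CPM in silica lungs at 1 day, against 106, 110.3 and 114 CPM in air lungs. At 6 months it had 114, 135 and 176 CPM in silica lungs, against 108, 98.6, 99.1, 112 and 114 CPM in the 5 air lungs. The groups were apart at 1 day, and at 6 months the lowest silica lung lay just above the highest air lung. The differences were 0.47 ± 0.053 at 1 day (adjusted p = 3.91e-05, edgeR) and 0.35 ± 0.096 at 6 months (adjusted p = 0.0244). The call at 6 months was lost without air 51, air 52 or silica 60, with adjusted p of 0.0602, 0.0617 and 0.0501 (edgeR). The estimated counts of C1s were fractional in lung, so reads may be shared with a similar transcript and its values are uncertain.

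C2, which C1s cleaves to build the classical convertase, was, of the 10 genes, the one whose silica effect in lung differed most between the times. At 1 day its lowest, median and highest values were 118, 136 and 163 CPM in silica lungs, against 137, 160.4 and 215 CPM in air lungs. At 6 months they were 186, 207 and 322 CPM in silica lungs, against 113, 161, 134, 116 and 136 CPM in the 5 air lungs. The groups overlapped at 1 day, with silica toward the low end, and were apart at 6 months, with silica above. The difference was -0.27 ± 0.10 at 1 day (unadjusted p = 0.0206, adjusted p = 0.101, edgeR) and 0.76 ± 0.14 at 6 months (adjusted p = 0.00324). The effect at 6 months minus that at 1 day was 1.03 ± 0.18 (adjusted p = 0.00456, edgeR). Silica 58 stood well above the other silica lungs at 6 months, and without it the C2 difference was 0.62 ± 0.091 (adjusted p = 0.00104, edgeR).

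C3, the protein all pathways cleave, had the largest difference of the 10 genes at both times in lung. Its lowest, median and highest values were 1010.0, 1271 and 1354 CPM in silica lungs at 1 day, against 307, 367 and 487 CPM in air lungs. At 6 months they were 889, 1017 and 1105 CPM in silica lungs, against 444, 463, 457, 347 and 494 CPM in the 5 air lungs. The groups were far apart at both times, with the lowest silica lung well above the highest air lung. C3 was 3.22-fold higher at 1 day, a log2 difference of 1.69 ± 0.10 (adjusted p = 3.85e-07, edgeR), and 2.29-fold higher at 6 months, a log2 difference of 1.19 ± 0.084 (adjusted p = 1.44e-05).

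The C3 effect at 6 months minus that at 1 day was -0.49 ± 0.14 and did not pass the threshold (adjusted p = 0.0884, edgeR). It passed by DESeq2 (adjusted p = 0.0252), and by edgeR without air 38 at 1 day (adjusted p = 0.0261) or without air 53 at 6 months (adjusted p = 0.0381).

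Cfb, which encodes the protease of the alternative convertase, was also higher in silica lungs at both times. It averaged 992 ± 87.5 CPM in silica and 682 ± 87.8 CPM in air lungs at 1 day (SD, n = 6 each). Cfb at 6 months averaged 1193 ± 197 CPM in silica (n = 6) and 669 ± 47.7 CPM in air lungs (SD, n = 5). The groups did not overlap: the lowest silica lung had 901 CPM at 1 day and 971 CPM at 6 months, against a highest air lung of 848 and 708 CPM. The differences were 0.54 ± 0.078 (adjusted p = 0.000344, edgeR) and 0.83 ± 0.098 (adjusted p = 0.000218), and they did not differ between times past the threshold (0.30 ± 0.13, adjusted p = 0.318). Cfb lies next to C2 on chromosome 20 in the GRCr8 annotation, yet at 1 day C2 was not called and its difference was below 0.

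Cfd, which encodes the protease that activates factor B, was the 1 gene of the 10 called lower in silica lungs, at 1 day. Its lowest, median and highest values were 7.68, 8.70 and 9.84 CPM in silica lungs at 1 day, against 11.4, 14.1 and 16.6 CPM in air lungs. At 6 months they were 12.0, 13.3 and 15.4 CPM in silica lungs, against 15.5, 15.1, 15.0, 10.4 and 15.0 CPM in the 5 air lungs. All silica lungs lay below all air lungs at 1 day, and the groups overlapped at 6 months. The difference was -0.70 ± 0.094 at 1 day (adjusted p = 0.000174, edgeR) and -0.070 ± 0.11 at 6 months (adjusted p = 0.708). The effect at 6 months minus that at 1 day was 0.64 ± 0.15 (adjusted p = 0.0241, edgeR). That call was lost without air 38 or silica 43 at 1 day, or silica 59 at 6 months, with adjusted p of 0.0521, 0.0528 and 0.0513 (edgeR).

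The 250 bases before the annotated starts of C3 and Cfd are shown in the same way, from RefSeq (GRCr8) and on the minus strand. That of C3 is chr9:2201340-2201589 and that of Cfd is chr7:10465497-10465746, and capitals mark the same motifs.
C3: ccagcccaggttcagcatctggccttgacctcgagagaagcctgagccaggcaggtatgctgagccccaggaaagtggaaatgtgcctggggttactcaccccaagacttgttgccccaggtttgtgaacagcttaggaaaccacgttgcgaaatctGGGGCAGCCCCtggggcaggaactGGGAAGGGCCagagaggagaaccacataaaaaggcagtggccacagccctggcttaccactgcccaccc
Cfd: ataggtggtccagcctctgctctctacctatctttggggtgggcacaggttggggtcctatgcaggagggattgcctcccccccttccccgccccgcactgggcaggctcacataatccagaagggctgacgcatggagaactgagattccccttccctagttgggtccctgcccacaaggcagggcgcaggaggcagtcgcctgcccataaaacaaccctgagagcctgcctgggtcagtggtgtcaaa
C3 held 3 kappaB-like matches, which begin 93, 92 and 69 bases before the start, and the first 2 of them overlap. The letters of these motifs are not in the Cfd window. Of all 33469 windows 42.3% held a kappaB-like match, and matches of letters are no evidence of a bound factor. Any part of the motifs in the differences of C3 and Cfd was not tested. C3ar1 held 1 kappaB-like match, and 5 of the 10 genes had a window in the table.

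Fat-cell and liver markers are the values to set beside Cfd, C3 and Cfb. Of 8 adipocyte markers, 4 were tested in lung at 1 day, with 0 higher and 1 lower. That one was Fabp4, which alveolar macrophages also carry, at 10.05 CPM in silica and 17.8 CPM in air lungs. Their summed level, mostly Lpl, was 594 to 721 CPM in silica and 488 to 666 CPM in air lungs at 1 day. At 6 months it was 709 to 862 CPM in silica and 568 to 652 CPM in air lungs, with 2 of 5 tested markers higher and 0 lower. The defining markers Adipoq and Plin1 stayed under 0.5 CPM in every lung library.

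Of 8 hepatocyte markers, 2 were tested in lung, and Tf was higher at both times. The sum of the 8, mostly Tf, was 112 to 173 CPM in silica and 79.9 to 102 CPM in air lungs at 1 day. At 6 months it was 120 to 174 CPM in silica and 102 to 118 CPM in air lungs. The defining hepatocyte marker Alb averaged 0.143 CPM in silica and 0.844 CPM in air lungs at 1 day and was not tested. That air mean rested mostly on 1 library at 4.59 CPM. Alveolar type 2 markers, those of the surfactant-making epithelial cells, summed to 20659 to 26129 CPM in silica and 20279 to 24844 CPM in air lungs at 1 day, with 2 of 6 higher and 1 lower. At 6 months they summed to 27363 to 33927 CPM in silica and 19105 to 24117 CPM in air lungs, with 5 of 6 higher and 0 lower. The part of these cells in the complement values was not tested.

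Markers of other cell types did not all move the same way in silica lungs. All 4 alveolar type 1 markers, those of the thin gas-exchange epithelium, were lower at 1 day and 2 of 4 at 6 months. They summed to 4097 to 4335 CPM in silica and 4621 to 5515 CPM in air lungs at 1 day, and to 3926 to 4485 CPM in silica and 4601 to 5093 CPM in air lungs at 6 months. All 4 erythroid markers were lower at 1 day and 1 of 4 at 6 months, with sums of 2828 to 3747 CPM in silica and 3758 to 5018 CPM in air lungs at 1 day. Erythroid sums at 6 months were 3135 to 4893 CPM in silica and 4071 to 5790 CPM in air lungs. Of 7 fibroblast lines 2 were lower and 0 higher at each time, Lum and Pdgfrb at 1 day and Lum and Dcn at 6 months. They summed to 1125 to 1342 CPM in silica and 1309 to 1336 CPM in air lungs at 1 day, and to 1027 to 1146 CPM in silica and 1158 to 1215 CPM in air lungs at 6 months. Of 4 monocyte markers tested, 2 were higher and 1 lower at 1 day, and 1 was higher and 1 lower at 6 months. Of 3 club cell markers, 1 was lower at 1 day and 0 at 6 months, and 0 of 3 mesothelial and 0 of 4 T and B cell markers passed at either time (edgeR). The part of these markers in the complement values was not tested either.

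**Figure D2:**
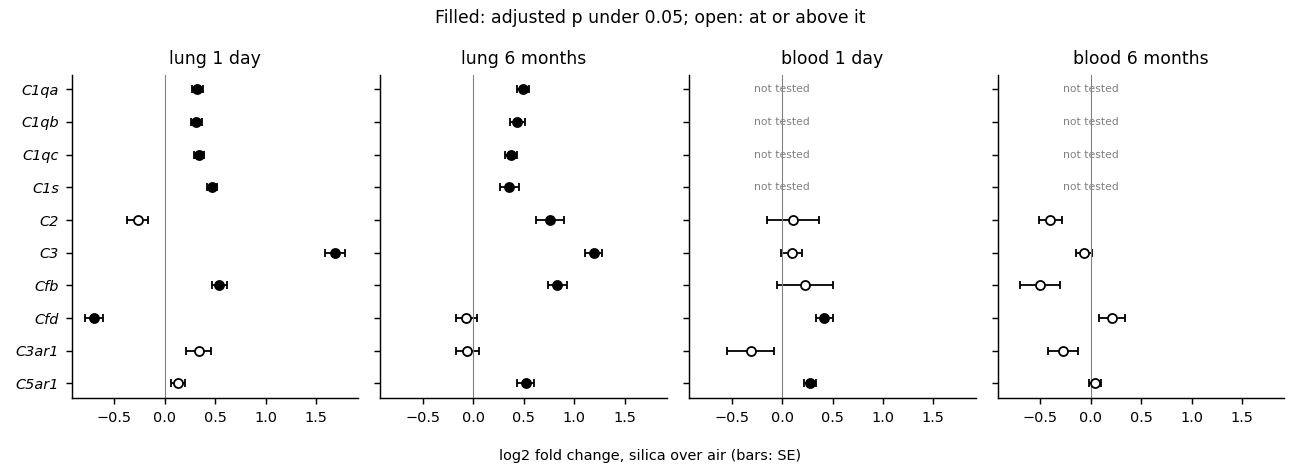
Log2 fold change of silica over air (x axis) with its SE for the 10 complement genes (rows) in lung and blood at 1 day and 6 months; filled points have an adjusted p under 0.05 and the C1q chains and C1s were not tested in blood. Points of C3 sit at 1.69 and 1.19 in lung and within 0.10 of 0 in blood.

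C5ar1, the receptor for C5a, was higher in silica lungs at 6 months. Its lowest, median and highest values were 47.0, 50.4 and 60.6 CPM in silica lungs at 1 day, against 43.3, 47.2 and 52.2 CPM in air lungs. At 6 months they were 57.1, 62.0 and 80.1 CPM in silica lungs, against 40.5, 51.0, 47.1, 40.3 and 45.6 CPM in the 5 air lungs. The groups overlapped at 1 day and were apart at 6 months. The difference was 0.13 ± 0.068 at 1 day (adjusted p = 0.226, edgeR) and 0.52 ± 0.087 at 6 months (adjusted p = 0.00186). The effect at 6 months minus that at 1 day was 0.39 ± 0.11 and missed the threshold (adjusted p = 0.0977, edgeR). It passed by DESeq2 (adjusted p = 0.0479) and by edgeR without silica 45 at 1 day (adjusted p = 0.0422).

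C3ar1, the receptor for C3a, passed the threshold at neither time in lung. It averaged 10.8 ± 1.31 CPM in silica and 8.51 ± 1.54 CPM in air lungs at 1 day, a difference of 0.34 ± 0.12 (adjusted p = 0.0822, edgeR, n = 6 each). At 6 months it averaged 11.4 ± 2.10 CPM in silica and 11.8 ± 0.663 CPM in air lungs, a difference of -0.060 ± 0.12 (adjusted p = 0.774, edgeR, n = 6 and 5). At 1 day it passed by DESeq2 (adjusted p = 0.0478) and by edgeR without air 37 (adjusted p = 0.0422) or without silica 43 (adjusted p = 0.0495).

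Neutrophil markers are given beside the receptors. Their sum was 302 to 660 CPM in silica and 142 to 264 CPM in air lungs at 1 day, with 5 of 7 tested markers higher and 2 lower. At 6 months it was 448 to 625 CPM in silica and 241 to 351 CPM in air lungs, with 2 of 7 higher and 0 lower. The largest part of the sum was S100a9 at both times. The granule gene Mpo stayed under 0.5 CPM in every lung library, and in every blood library as well. Their part in the receptor values was not tested.

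Single animals recurred at the edges of their groups. At 6 months silica 58 had the highest silica value for 8 of the 10 genes, silica 64 the lowest for 6 and air 53 the lowest air value for 6. At 1 day air 38 had the highest air value for 7 genes and silica 44 the highest silica value for 5. Of the calls of these genes in lung, silica against air, only that of C1s at 6 months was lost when 1 library at a time was left out.

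Of the 10 genes, 2 had a silica effect in lung that differed between the times, C2 and Cfd, both with the higher effect at 6 months. Over all 15786 genes tested, 1.12% had a higher effect at 6 months and 0.253% a lower one. In blood 0 of 6 passed (edgeR), where 0% of 12444 genes did. Of these 6, C5ar1 passed at an unadjusted p under 0.05 (edgeR), where 1326 of 12444 genes did. DESeq2 called 0 of the 6 and 88 genes in all.

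In blood 6 of the 10 genes had enough counts to be tested. The C1q chains had 0 to 24 counts and C1s 0 to 5 counts per blood library, and they were not tested there. At 1 day 2 of the 6 were higher in silica blood, C5ar1 and Cfd, and 0 were lower. Over all 12253 genes tested in that comparison, 1.19% were higher.

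C5ar1 in blood at 1 day had a lowest, median and highest value of 99.0, 106 and 123 CPM in silica rats, against 83.7, 90.4 and 93.2 CPM in air rats. Cfd had 15.9, 17.3 and 19.1 CPM in silica rats, against 10.1, 12.9 and 15.0 CPM in air rats. Every silica library lay above every air library for both genes. The differences were 0.27 ± 0.059 for C5ar1 (adjusted p = 0.0372, edgeR) and 0.42 ± 0.088 for Cfd (adjusted p = 0.0305). The call of C5ar1 was lost without 9 of the 12 libraries left out in turn (each air library and silica 45, 46 or 48), with a highest adjusted p of 0.0982 (edgeR). That of Cfd was lost without 7 of the 12 (air 37, 41 or 42, silica 45, 46, 47 or 48), with a highest adjusted p of 0.0837, and with all 4 blood groups in 1 fit (0.42 ± 0.12, adjusted p = 0.105, edgeR).

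The sum of the neutrophil markers in blood at 1 day was 3437 to 4207 CPM in silica rats and 2129 to 2717 CPM in air rats, with 4 of 7 tested markers higher and 0 lower. Adipocyte markers summed to at most 5.53 CPM in silica and 5.24 CPM in air blood, and Plin1 and Lep were at 0. The part of neutrophils in the 2 calls was not tested.

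**Figure D3:**
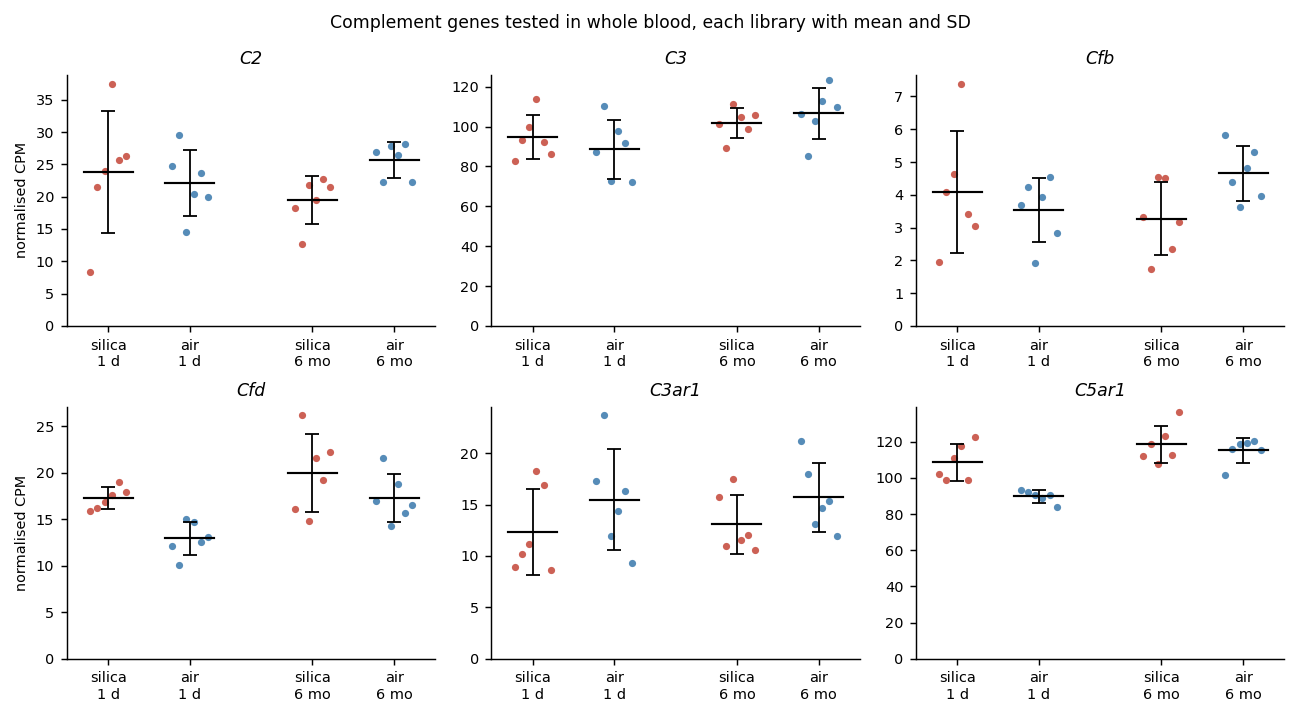
Normalised CPM (y axes from 0, a scale for each gene) of the 6 complement genes tested in whole blood, in each library, with silica in red and air in blue at 1 day and 6 months; the bar is the mean and the whiskers are 1 SD. Silica and air are apart for C5ar1 and Cfd at 1 day and overlap in every other pair of groups.

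The other 4 genes tested in blood at 1 day had overlapping groups. C3 averaged 94.7 ± 11.01 CPM in silica and 88.6 ± 14.8 CPM in air blood, a difference of 0.10 ± 0.11 (adjusted p = 0.763, edgeR, n = 6 each). C2 averaged 23.9 ± 9.41 CPM in silica and 22.2 ± 5.08 CPM in air blood, and Cfb 4.09 ± 1.86 CPM in silica and 3.53 ± 0.973 CPM in air blood. C3ar1 averaged 12.4 ± 4.17 CPM in silica and 15.5 ± 4.96 CPM in air blood. Their differences were 0.11 ± 0.25, 0.22 ± 0.28 and -0.31 ± 0.23, with adjusted p of 0.907, 0.796 and 0.614 (edgeR).

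At 6 months 0 of the 6 genes were called in blood by edgeR, where 0.0086% of 11629 genes were called in either direction. DESeq2 also called 0 of the 6. At an unadjusted p under 0.05 (edgeR) 2 of them passed, C2 and Cfb, where 1012 of 11629 genes did. C2 averaged 19.4 ± 3.71 CPM in silica and 25.7 ± 2.74 CPM in air blood, a difference of -0.40 ± 0.12 (adjusted p = 0.539, edgeR, n = 6 each). Cfb averaged 3.27 ± 1.12 CPM in silica and 4.66 ± 0.833 CPM in air blood, a difference of -0.50 ± 0.20 (adjusted p = 0.545, edgeR, n = 6 each). The other 4 differences lay between -0.28 for C3ar1 and 0.21 for Cfd. C5ar1 averaged 119 ± 10.3 CPM in silica and 115 ± 6.93 CPM in air blood (SD, n = 6 each).

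The silica effect was then compared between lung and blood at each time, as the lung difference minus the blood difference. At 1 day 2 of the 10 genes passed, C3 at 1.55 ± 0.15 (adjusted p = 1.74e-06, edgeR) and Cfd at -1.16 ± 0.13 (adjusted p = 6.55e-06), where 4.03% of 15989 genes passed. Cfd was lower in silica lungs and higher in silica blood at that time. At 6 months 4 genes passed, where 3.53% of 15790 genes did. They were C2 at 1.14 ± 0.19 (adjusted p = 0.00143, edgeR), C3 at 1.24 ± 0.12 (adjusted p = 3.56e-06), Cfb at 1.31 ± 0.22 (adjusted p = 0.00155) and C5ar1 at 0.45 ± 0.11 (adjusted p = 0.0176). With the animal as a replicate block, in the 9 animals with both tissues, C5ar1 did not pass (0.45 ± 0.13, adjusted p = 0.105, edgeR) and the others did. For the C1q chains and C1s the blood side rested on few counts, and the SE of this comparison was between 0.55 and 1.52.

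Set side by side over the 8 groups, C3 was highest in silica lung at 1 day and at 6 months, with means of 1224 and 1009 CPM. Air lungs followed with 380 and 441 CPM, whose ranges overlapped, and blood was lowest, with 88.6 to 107 CPM in all 4 groups. Cfd covered a narrower span, with means of 8.69 CPM in silica lung at 1 day, 12.9 to 14.2 CPM in the other lung groups and air blood at 1 day, and 17.3 to 20.03 CPM in the remaining blood groups. C5ar1 averaged 44.9 to 64.3 CPM over the lung groups and 89.8 to 119 CPM over the blood groups.

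Other complement genes were taken from lists of 43 names, of which 42 were found (Cd59b was not). The lists were also chosen with earlier results of these data known. In lung at 1 day, 36 of their lines were tested, 11 were higher and 2 lower, where 8.39% of all genes tested were higher and 5.72% lower. At 6 months 37 were tested, 12 were higher and 3 lower, where 9.84% of all genes were higher and 6.38% lower. Mbl1 at 1 day and C4bpb at both times were among those higher, at under 5 CPM in each group. The upstream protease gene C1r, which activates C1s and lies next to it on chromosome 4, was higher at 1 day (220.3 CPM in silica and 190 CPM in air lungs, 0.22 ± 0.056, adjusted p = 0.0176, edgeR). The C1r groups overlapped at 1 day, and at 6 months C1r did not pass (0.17 ± 0.075, adjusted p = 0.141, edgeR). C4a, encoding the C4 protein that C1s cleaves, stood on 2 lines. The line with more counts was not called at 1 day (0.21 ± 0.082, adjusted p = 0.116, edgeR). Its effects at the 2 times did not differ past the threshold (0.57 ± 0.19, adjusted p = 0.141, edgeR). That line was higher at 6 months (206 CPM in silica and 121 CPM in air lungs, 0.77 ± 0.16, adjusted p = 0.00597, edgeR). The other line was not called there, at 0.756 CPM in silica and 1.17 CPM in air lungs (-0.57 ± 1.17, adjusted p = 0.790, edgeR). The near-copy C4b was not called at 6 months (0.38 ± 0.13, adjusted p = 0.0715, edgeR). Reads of C4a and C4b may be split between them, so both are uncertain.

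Among the lectin pathway genes, Fcna, a ficolin that binds sugars, averaged 10.3 CPM in silica and 14.6 CPM in air lungs at 1 day, a difference of -0.50 ± 0.14 (adjusted p = 0.0237, edgeR). That call was lost without 5 of the 12 libraries in turn (air 37 or 38, silica 43, 44 or 47), with a highest adjusted p of 0.0571 (edgeR). Over the classical and lectin list, 2 of 9 tested lines were higher and 1 lower at 1 day. Of all genes tested then, 8.39% were higher and 5.72% lower. At 6 months 1 of 10 lines was higher and 0 lower. That 1 of 10 is near the 9.84% of all genes that were higher at 6 months, where 6.38% were lower.

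The terminal pathway genes, whose products form the membrane attack complex, were listed together with Cfp of the alternative pathway. Of the 7 lines of that list tested, 2 were higher at 1 day and 3 at 6 months, where 8.39% and 9.84% of all genes were, and 0 were lower. C6 averaged 25.4 CPM in silica and 14.9 CPM in air lungs at 1 day (0.77 ± 0.16, adjusted p = 0.00577, edgeR), and C7 averaged 1029 CPM in silica and 764 CPM in air lungs (0.43 ± 0.049, adjusted p = 4.34e-05). The groups of C6 overlapped then (lowest silica lung 15.8 CPM, highest air lung 16.7 CPM), and those of C7 did not. C5 stood on 2 lines, and both were higher at 6 months. The line with more counts averaged 139 CPM in silica and 88.9 CPM in air lungs (0.65 ± 0.071, adjusted p = 0.000142, edgeR) and the other 23.7 CPM in silica and 14.6 CPM in air lungs (0.70 ± 0.10, adjusted p = 0.000842). C7 passed at 6 months as well, a value outside the rule for naming genes (0.19 ± 0.056, adjusted p = 0.0362, edgeR), but not without 8 of the 11 libraries in turn (air 49, 51, 52 or 54, silica 58, 59, 60 or 61), with a highest adjusted p of 0.0884. Properdin, the product of Cfp that steadies the alternative convertase, was not called at either time (adjusted p = 0.308 and 0.745, edgeR).

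Of 13 regulator lines tested, 5 were higher and 1 lower at 1 day, where 8.39% of all genes were higher and 5.72% lower. At 6 months 4 were higher and 2 lower, where 9.84% of all genes were higher and 6.38% lower. Among the regulators C4bpb, the beta chain of C4-binding protein, had the largest difference at 1 day (2.36 ± 0.35, adjusted p = 0.000412, edgeR). It stayed under 5 CPM in each group and so lay outside the naming rule. At 6 months that of C4bpb was 1.25 ± 0.28 (adjusted p = 0.00936, edgeR). C4bpa, the alpha chain of C4-binding protein, which dampens the classical pathway, had a lowest, median and highest value of 96.7, 119 and 130.3 CPM in silica lungs at 1 day, against 36.2, 47.8 and 67.4 CPM in air lungs. Values at 6 months were 112, 149 and 219 CPM in silica lungs, against 51.0, 60.9, 64.7, 51.0 and 65.1 CPM in the 5 air lungs. The groups were apart at both times, with differences of 1.22 ± 0.12 (adjusted p = 1.22e-05, edgeR) and 1.388 ± 0.15 (adjusted p = 0.000113).

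Cfi, factor I, which cleaves and inactivates C3b and C4b, had 13.4, 18.2 and 20.1 CPM as lowest, median and highest in silica lungs at 1 day, against 8.25, 11.0 and 13.0 CPM in air lungs. Values at 6 months were 29.2, 48.4 and 93.7 CPM in silica lungs, against 12.5, 10.95, 10.3, 7.95 and 17.4 CPM in the 5 air lungs. The silica lungs lay above the air lungs at both times and spread widely at 6 months, with silica 58 highest. The differences were 0.67 ± 0.12 (adjusted p = 0.00224, edgeR) and 2.15 ± 0.31 (adjusted p = 0.000778). The effect at 6 months minus that at 1 day was 1.483 ± 0.34 (adjusted p = 0.0267, edgeR), a call lost without 8 of the 23 libraries in turn, with a highest adjusted p of 0.0658. These were silica 43 or 47 and air 38 or 41 at 1 day, and silica 59 and air 51, 52 or 53 at 6 months.

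Not all regulators followed. Cd59, a membrane protein that blocks the terminal complex, averaged 480.3 CPM in silica and 454 CPM in air lungs at 1 day (0.08 ± 0.040, adjusted p = 0.201, edgeR) and was not called at 6 months (adjusted p = 0.164). Cd55, which speeds the decay of the convertases, was called at neither time. Vtn, vitronectin, which binds the terminal complex, was lower at 1 day (62.6 CPM in silica and 75.3 CPM in air lungs, -0.27 ± 0.048, adjusted p = 0.00195, edgeR). It was also lower at 6 months, again outside the naming rule (-0.24 ± 0.062, adjusted p = 0.0192, edgeR), but not without air 53 (adjusted p = 0.0506). Clu, clusterin, which also binds it, was lower at 6 months (447 CPM in silica and 501 CPM in air lungs, -0.16 ± 0.038, adjusted p = 0.0112, edgeR). Serping1, the inhibitor of C1s, was higher at 1 day (355 CPM in silica and 313 CPM in air lungs, 0.18 ± 0.039, adjusted p = 0.00631, edgeR). At 6 months Serping1 was not called (0.045 ± 0.035, adjusted p = 0.428, edgeR). Its effects at the 2 times did not differ past the threshold (adjusted p = 0.259, edgeR). C1qbp, which binds C1q, was higher at both times (0.24 ± 0.044 with adjusted p = 0.00176, and 0.25 ± 0.045 with adjusted p = 0.00300, edgeR).

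**Figure D4:**
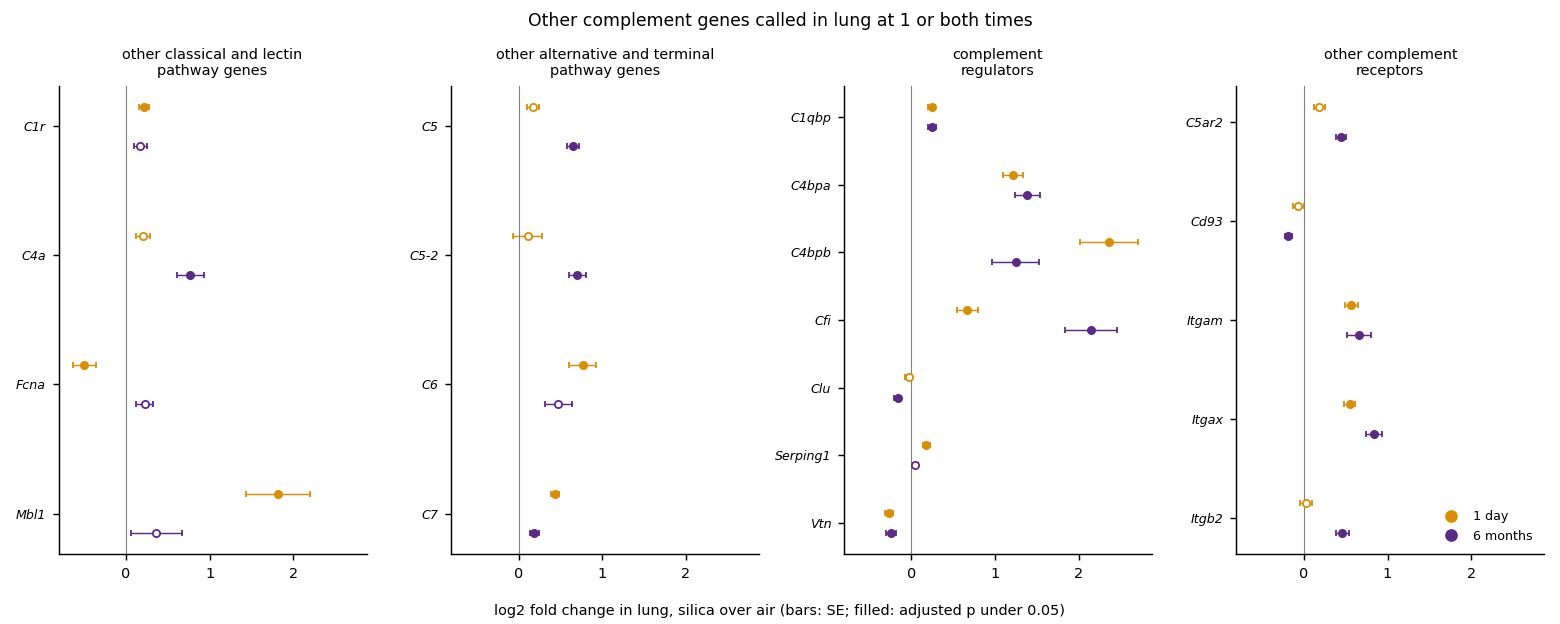
Log2 fold change of silica over air in lung (x axis) with its SE for the lines of 4 lists of other complement genes that were called at 1 or both times (rows), at 1 day in orange and 6 months in purple; filled points have an adjusted p under 0.05. C4bpa lies at 1.22 and 1.388 and Cfi at 0.67 and 2.15, while Vtn lies below 0 at both times. Clu and Cd93 are called lower at 6 months only, with open points at -0.03 and -0.06 at 1 day. C5-2 is a second line of the name C5.

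Among other receptors, the integrin chains of complement receptors 3 and 4 were higher in silica lungs. Itgam averaged 34.3 CPM in silica and 23.0 CPM in air lungs at 1 day (0.57 ± 0.082, adjusted p = 0.000348, edgeR), and at 6 months 45.9 CPM in silica and 29.0 CPM in air lungs (0.66 ± 0.14, adjusted p = 0.00741). Its groups overlapped at 6 months, with a lowest silica lung of 37.4 CPM and a highest air lung of 40.2 CPM. Itgax averaged 62.3 CPM in silica and 42.6 CPM in air lungs at 1 day (0.55 ± 0.066, adjusted p = 7.89e-05, edgeR), and at 6 months 82.5 CPM in silica and 46.1 CPM in air lungs (0.84 ± 0.095, adjusted p = 0.000172). Their shared partner Itgb2 was higher at 6 months (0.46 ± 0.077, adjusted p = 0.00180, edgeR) and not called at 1 day (0.03 ± 0.070, adjusted p = 0.832). C5ar2, the second receptor for C5a, was higher at 6 months, at 48.7 CPM in silica and 35.8 CPM in air lungs (0.44 ± 0.059, adjusted p = 0.000487, edgeR). At 1 day C5ar2 was not called (0.18 ± 0.064, adjusted p = 0.0716, edgeR). Its effects at the 2 times did not differ past the threshold (0.26 ± 0.090, adjusted p = 0.167, edgeR). Cd93 was lower at 6 months, at 374 CPM in silica and 425 CPM in air lungs (-0.18 ± 0.038, adjusted p = 0.00574, edgeR).

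In blood edgeR called 0 of the 21 lines of these lists tested at 1 day and 0 of the 20 at 6 months. Over all genes it called 168 of 12253 and 1 of 11629, so few calls were to be had there. DESeq2 called 0 at both times. At an unadjusted p under 0.05 (edgeR) 2 lines passed at each time, C4b and Cd59 at 1 day and C4b and Fcna at 6 months. Over all genes 1575 of 12253 passed so at 1 day and 1012 of 11629 at 6 months, a share near that of these lines. The lung difference minus the blood difference passed at 1 day for 2 of 37 lines tested, Itgam and Itgax, near the 4.03% of all genes that passed. At 6 months it passed for 6 of 37, Itgam, Itgax, C1qbp, C5ar2, Fcna and Itgb2, where 3.53% of all genes did (edgeR). The call of C5ar2 was lost without 5 of the 23 libraries in turn (lung silica 58 or 62, lung air 49, 51 or 53), with a highest adjusted p of 0.0577 (edgeR).

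Genes with a pattern like that of C3 were sought by the distance between their 4 differences (lung and blood at both times) and those of C3, among 9423 genes tested in all 4 comparisons. The nearest was Sod2, which encodes the mitochondrial superoxide dismutase, at 1.405 and 1.04 in lung and 0.01 and 0.03 in blood (1 day, then 6 months; distance 0.347). Next came Cdca3, a cell division gene, at 1.30 and 1.22 in lung and 0.22 and -0.04 in blood (distance 0.409), and Chi3l1, a chitinase-like secreted protein, at 1.58 and 1.19 in lung and 0.44 and 0.18 in blood (distance 0.436). For Cfd the nearest were Cd101, Nrg1 and Clec7a, at distances of 0.351, 0.405 and 0.406. C1qa was not tested in blood, so over the lung pair alone, a choice made after the values were seen, Cd300lf and Abcb4 were among the nearest, and 72 of 11444 genes lay within 0.1 of it.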

How the data were processed

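RNA of lung and whole blood was measured in 47 libraries. Per the labels' protocols, globin transcripts were removed from the RNA of blood and a stranded mRNA library kit was used. The submitters' processing notes list Salmon 1.10.1, STAR 2.6.1d, Trim Galore 0.6.7, cutadapt 3.4 and bcl2fastq 2.19, with the build Rnor_6.0, and give neither roles nor an order. The deposited tables hold estimated counts per gene (expected counts, not normalized), which were rounded to whole numbers here; 0 columns were left over after matching columns to samples by title. Estimated counts split reads between similar genes, and 266 gene names stood on more than 1 line.

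Silica was compared with air in each table by the quasi-likelihood F test of edgeR 4.0.16 (R 4.3.3). Genes were kept by filterByExpr at a minimum count of 10, libraries were scaled by TMM, and p was adjusted by Benjamini-Hochberg over all genes tested, with a threshold of 0.05. The SE was computed as the absolute log2 fold change divided by the square root of F. Differences between times and tissues were interaction terms over the 4 groups concerned. The procedure was first tested on simulated data with known changes. Alternatives were DESeq2 1.42.0, upper-quartile or RLE scaling in edgeR, a minimum count of 50, no filter, all 4 groups of a tissue in 1 fit, summed lines of the same name, each library left out in turn, and, between tissues, the animal as a replicate block or, added after seeing the data, the animals with both tissues without that block.

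The complement genes and lists were chosen with earlier results of these data known. Named genes are the 10 complement genes; of the other lists, up to 12 called genes per comparison with at least 5 CPM in the higher group, smallest p first; and the 3 genes nearest to C3, C1qa and Cfd by distance between their log2 fold changes, among genes with a symbol and at least 5 CPM in a lung group. An animal number in the titles recurs in lung and blood. The reported tests between tissues took libraries that share it as independent. The replicate block, an alternative, treated them as 1 animal, although no label says so directly. Deviations from group means of same-numbered libraries correlated from -0.0869 to 0.134 at 1 day (2 of 12 pairs over 0.1) and from -0.0636 to 0.0975 at 6 months (0 of 9 over 0.1). Counts of every 2 libraries of a group were compared by chi-square, which per degree of freedom was between 3.76 and 35.3, so none were counted as 1 sample. Within a table the p-values measure the spread between animals. Between tissues, without the block, they measure the spread between libraries taken as independent. Promoter windows and gene neighbours came from RefSeq tables of GRCr8, a build other than that of the counts. A few genes of the lists and of the naming rule are not reported here.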

Additional observations from a re-analysis of the deposited data

Results flagged for a closer look

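Of 64 pairs of a complement gene and a group with enough counts, 5 held 1 library far from the others, where chance alone gives such a library in about 5% of groups. In lung at 1 day silica 44 had 179 CPM of C1s, and the next silica lung had 154 CPM. In lung at 6 months silica 58 had 322 CPM of C2, where the next had 223 CPM, and 80.1 CPM of C5ar1, where the next had 63.7 CPM. Air 53 had 10.4 CPM of Cfd in lung at 6 months, and the next air lung had 15.0 CPM. Air 51 had 102 CPM of C5ar1 in blood at 6 months, and the next air library had 116 CPM. Without silica 44 the C1s difference at 1 day was 0.42 (adjusted p = 1.12e-05, edgeR), and without silica 58 that of C5ar1 at 6 months was 0.45 (adjusted p = 0.000914). Without air 53 the Cfd difference in lung at 6 months was -0.17 (adjusted p = 0.206, edgeR). Without air 51 the C5ar1 difference in blood at 6 months was 0.0061 (adjusted p = 0.992, edgeR).

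The silica effect differed between groups in 8 tests of an interaction, each past an adjusted p of 0.05 (edgeR). In lung, the effect at 6 months minus that at 1 day was 1.03 for C2 and 0.64 for Cfd on the log2 scale. The effect in lung minus that in blood was 1.55 for C3 and -1.16 for Cfd at 1 day. At 6 months it was 1.14 for C2, 1.24 for C3, 1.31 for Cfb and 0.45 for C5ar1.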

How the results depend on the processing

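Over the complement genes, 1575 values under alternatives were compared with those reported: 1520 kept their direction and side of the threshold, 24 lost a call, 9 gained one and 22 changed sign, of which 0 were past the threshold before or after. Among the values with 1 library left out, sign changed for C2 (-0.074 to 0.29) and Cfb (-0.040 to 0.37) in blood at 1 day, for C1qc (-0.0039 to 0.059) between times in lung, C3ar1 (-0.12 to 0.19) between times in blood, C1s (-0.25 to 0.74) between tissues at 1 day and C1qc (-0.70 to 0.94) between tissues at 6 months. The last was also -0.060 with the replicate block and -0.058 in the animals with both tissues. In blood at 1 day the 2 calls became 1, without Cfd, with all 4 blood groups in 1 fit, and 0 to 2 with 1 library left out. The difference between times in lung, called for 2 genes, was called for 4 by DESeq2 and for 1 to 3 with 1 library left out (1 without silica 43 at 1 day or silica 59 at 6 months). C1qa, not called between tissues at 6 months, was called without blood silica 58 (1.97, adjusted p = 0.0334, edgeR). With the replicate block the lung and blood effects differed for 2 genes at 1 day (12 animals) and for 3 at 6 months (9 animals), where 4 were called without it. That fit at 6 months also left out animals with 1 tissue; in the same 9 animals without the block, an alternative chosen after seeing the data, 4 were called, C5ar1 included (0.46 ± 0.11, adjusted p = 0.0384, edgeR). With the block its difference was 0.45 ± 0.13. The cause of the other changes was not tested.

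Over all genes, the 168 calls in blood at 1 day were 361 by DESeq2 and 86 to 95 without any of 7 libraries (silica 45, 46 or 48, air 37, 38, 41 or 42). The 1 call in blood at 6 months was 3 by DESeq2 and 0 without any 1 of 11 of the 12 libraries. The interaction tests of edgeR called 217 genes between times in lung and DESeq2 351; they called 0 and 88 between times in blood, and 557 and 1017 between tissues at 6 months. The C1q chains and C1s had at most 24 counts per blood library, and a difference in blood alone was not tested for them. Arms of 5 or 6 animals, unknown chambers and separately scaled tables limit what the levels show.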
